A study of Danio rerio with 13 samples.

Results

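Acute lymphoblastic leukemia (ALL) of the *hMYC-2* group was compared with T-ALL of the *hlk* line, probe set by probe set, in GFP+ cells sorted from adult zebrafish. The 9 arrays were taken by their titles, 6 of *hMYC-2* ALL and 3 of *hlk* ALL, out of 13 in the series, and all 15502 probe sets that are no controls were tested. The *hMYC-2* fish carried the transgenes *rag2:hMYC* and *lck:eGFP*, and the *hlk* fish carried *hlk* with *lck:eGFP*. The *rag2* promoter drives human *MYC* in immature lymphocytes, and the MYC protein is fused to a modified estrogen receptor that tamoxifen can activate, although the study gave none. The *lck* promoter drives GFP in lymphocytes of both lines, and GFP+ cells were sorted from the body, so B cells with a low *lck* signal can lie in the gate. *hlk* is another line that develops T-ALL, and *hMYC* and *hlk* tumors differ in genotype. They may differ in lineage as well, and the parts of genotype and lineage cannot be told apart here. Cells with high and low GFP were not separated for these arrays. The study proposes that *hMYC* samples might hold T-ALL cells with differing fractions of B cells, the highest in *hMYC-2*. The share of each cell type in these samples was not tested here. The study clustered the ALL of 10 *hMYC* fish on these same arrays and called the 6 farthest from *hlk* *hMYC-2* and the 4 nearest *hMYC-1*. The distance between the 2 groups compared here was therefore part of how 1 of them was chosen.

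T cell and B cell ALL arise from immature lymphocytes that keep much of the expression program of their lineage. T cell precursors use GATA3, RUNX3, ETS1 and the T cell receptor, while B cell precursors use PAX5, the adaptor BLNK, the kinases BTK and SYK and the immunoglobulin genes. MYC is a transcription factor that is known to raise the genes of ribosome assembly, nucleotide synthesis and mitochondria in growing cells, and it binds DNA together with its partner MAX.

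Values are log2 expression of a probe set after the justRMA normalization of the study, and a difference is the mean of the *hMYC-2* arrays minus the mean of the *hlk* arrays on that scale, so that 1 is a factor of 2. A probe set was called higher or lower when limma's p, adjusted by Benjamini-Hochberg over all probe sets, was under 0.05. The 5.68 of the brightest tag control, a spot with no zebrafish target, was taken as background. Where a whole group lay at or under that value, only a bound was measured, the mean of the brighter group minus 5.68, and such a difference carries the words "at least". Where only some arrays of a group were above it, the difference takes every array at its own value and is measured less well. Between 6252 and 6558 probe sets were above background on each of the 9 arrays. Arrays correlated across probe sets at 0.983 to 0.992 within *hMYC-2*, 0.955 to 0.975 within *hlk* and 0.913 to 0.930 between the groups. The 3′ end of the *GAPDH* control transcript read 4.69 above its 5′ end in *hlk* replicate 1 and 1.09 to 1.92 above it in the rest of the 9, and degraded RNA widens such a gap. The part of RNA quality in the differences was not tested, and counts without this array are given below where they differ by over 1.5 times.

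*hMYC-2* ALL differed from *hlk* T-ALL at 3822 of the 15502 probe sets, 24.7% of those tested. Of these, 2118 were lower in *hMYC-2* (13.7% of all) and 1704 were higher (11.0%). With the replicate number as a block the count was 2395, 1169 higher and 1226 lower. Replicate numbers 5 and 6 occur only in *hMYC-2*, so with the block those arrays add nothing to the difference. The block also leaves fewer arrays to measure the spread. Whether a call lost with the block, here or below, was lost for these reasons was not tested. Among all probe sets, 3589 (23.2%) had no overlap between the arrays of the 2 groups. This held for 1410 of those called higher and 1660 of those called lower. Most genes named below were named on the condition that their arrays did not overlap. Where a lack of overlap is stated for such genes, it describes that choice and is no separate result. Of the 8793 genes named by 1 symbol, 1090 were higher (12.4%) and 1334 lower (15.2%), each gene counted by its brightest probe set, and the median difference over all of them was −0.08. These shares are the level against which each gene list below is read.

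The lower set was the larger in number and the smaller in size. The median size of a rise was 0.94 and that of a fall 0.64. Differences of at least 1 were seen at 793 higher and 550 lower probe sets, differences of at least 3 at 139 and 84, and of at least 5 at 22 and 14. Many of the falls were in dim probe sets: 617 of the 2118 lay within background in both groups, against 278 of the 1704 rises, which leaves 1501 falls and 1426 rises. Of the 671 falls under 0.5, 372 lay within background in both groups. In the dimmest band, probe sets whose mean over the 9 arrays was under 4, 402 of 4998 were lower and 101 higher. From 6 to 8 the counts were 704 and 687 of 3700, and from 8 to 10 they were 333 and 344 of 1714. The excess of falls thus lay mostly at the dim end.

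**Figure D1:**
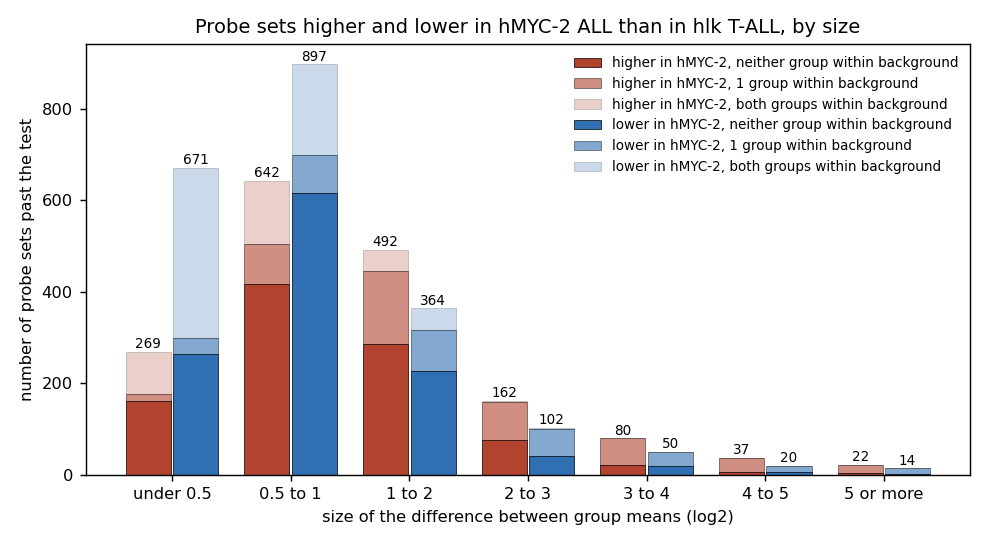
Number of probe sets called higher (red) or lower (blue) in *hMYC-2* ALL than in *hlk* T-ALL, by the size of the difference (log2), with lighter parts of a bar for probe sets that lay within background in 1 or in both groups. Falls outnumbered rises below 1 (671 and 897 against 269 and 642), and rises outnumbered falls in every band from 1 upward (492 against 364 between 1 and 2).

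The balance of both directions also moved with the scaling. After a shift of every array that made the mean of *actb1*, *eef1a1l1* and *gapdh* equal, 1779 probe sets were higher and 909 lower, and the share of higher ones went from 44.6% to 66.2%. The median difference of all probe sets moved from −0.065 to 0.069 with it. The shift was 0.43 for *hlk* replicate 1 and between −0.10 and 0.14 for the other 8 arrays. In this array the *gapdh* probe set, a dim one, read 6.66, against 5.69 and 4.88 in *hlk* replicates 2 and 3 and 4.72 to 5.33 (median 5.05) in *hMYC-2*. With *hlk* replicate 1 left out, the same shift gave 1356 higher and 1492 lower. Over the named genes the shift of all 9 arrays gave 1151 higher and 568 lower, and the replicate block 763 and 790. The shift without *hlk* replicate 1 gave 898 and 913. The count of a gene list under the shift of all 9 arrays or the block is given beside it where it differs by over 1.5 times and by at least 2 genes.

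Several genes of the T cell list were lower in *hMYC-2* ALL. Only 13 of the 66 genes of this list were measured. Of these 13, 6 were lower and 1 was higher, and the median difference was −0.3. *runx3*, a transcription factor of cytotoxic T cells, read 11.76, 11.9 and 12.04 in the *hlk* arrays and 7.29 to 8.97 (median 8.41) in *hMYC-2* (difference −3.56, standard error 0.37, limma's adjusted p = 1.69e-05). *ets1*, which T cell development requires in mammals, read 9.61, 10.12 and 9.96 in *hlk* and 6.0 to 6.58 (median 6.32) in *hMYC-2* (−3.61, adjusted p = 7.48e-08). The groups were far apart for both genes, and a second probe set of each was also lower.

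*gata3*, the factor that sets T cell fate in mammals, read 9.08, 6.22 and 8.0 in *hlk*. All 6 *hMYC-2* arrays lay within background, 3.32 to 3.94 (median 3.54), so the level was lower by at least 2.09 (adjusted p = 4.52e-05). *trac*, the constant region of the T cell receptor alpha chain, read 9.89, 7.33 and 9.93 in *hlk*. It was 4.25 to 6.39 (median 4.4) in *hMYC-2*, where replicate 5 was the 1 array above background of 6 (lower, adjusted p = 0.00278), and the other 2 probe sets of *trac* were dim and did not pass the test. *prkcbb*, a protein kinase C beta gene that B cells use as well, was lower at −1.54, and *prkcha*, a protein kinase C eta gene, was the 1 member that was higher (at least 0.73). *lcp2a* and *grap2b*, adaptors of the T cell receptor, did not pass the test, with differences of −0.33 and 0.02. *lck*, *cd4-1*, *cd8a*, *itk*, *zap70*, *lat*, *tcf7*, *cd2* and *skap1* were matched to no probe set by symbol. *runx3*, *ets1*, *gata3* and *trac* were named because they were called with arrays that did not overlap. They are therefore no test of the T label of *hlk*, which was taken from the study.

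In bulk RNA, fewer cells of a type and less RNA per cell cannot be told apart, here as in every comparison that follows.

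Genes of V(D)J recombination, the cutting and joining of receptor gene segments in immature lymphocytes, were in part lower. Of 16 measured, 6 were lower and 0 higher. *dclre1c*, which encodes the nuclease Artemis that opens the hairpin ends, read 7.05, 8.4 and 8.18 in *hlk* and was within background in all *hMYC-2* arrays (lower by at least 2.2, adjusted p = 1.27e-05). *polm*, a DNA polymerase of end joining, read 6.38, 8.16 and 8.19 in *hlk* and was lower by at least 1.9 (adjusted p = 5.92e-05). For both genes *hlk* replicate 1 was the lowest *hlk* array and still lay above every *hMYC-2* array.

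*rag1*, a subunit of the recombinase, read 5.5, 11.16 and 10.53 in *hlk* and 4.64 to 6.25 (median 5.04) in *hMYC-2*. The difference was −3.8 (adjusted p = 0.0124), but *hlk* replicate 1 lay among the *hMYC-2* arrays, and in the exact two-sided permutation test of 6 against 3 arrays p was 0.0714. *rag2* read 5.1, 6.86 and 7.95 in *hlk* and 5.21 to 8.09 (median 7.59) in *hMYC-2*, did not pass the test (0.6, adjusted p = 0.541), and varied as widely within the groups as between them. The Ku subunit *xrcc6* and the DNA-bending proteins *hmgb1a* and *hmgb1b* were lower at −0.69, −0.67 and −0.76, and *h2ax*, the histone that marks DNA breaks, gave 0.01 and did not pass.

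B lineage genes were higher in *hMYC-2* ALL. Of 19 measured, 16 were higher (84.2%) and 3 lower, and the median difference was 2.96, or 2.69 with each gene at background in *hlk* taken at its lower bound. Part of this list was named by the study from these same arrays, so the count is not independent evidence of its direction. The count and median also include genes that are not confined to B cells, such as *sptbn1*, *cxcr4a* and *cxcr4b*, each among the rises. *igl1c1*, an immunoglobulin light chain constant region, read 5.28, 5.16 and 4.93 in *hlk*, all within background, and 11.81 to 12.24 (median 12.01) in *hMYC-2*, a difference of at least 6.33 (adjusted p = 1.98e-12). *spi1b*, the zebrafish ortholog of the myeloid and B cell factor PU.1, read 4.59, 4.81 and 4.16 in *hlk* and 8.81 to 9.67 (median 9.4) in *hMYC-2* (at least 3.65, adjusted p = 3.61e-07). Both genes were at background in every *hlk* array and high in every *hMYC-2* array, and so were *sptbn1*, a spectrin (at least 5.36) and *cd81a*, a tetraspanin of the B cell coreceptor (at least 3.42). The B cell factor *pax5* read 4.9, 4.49 and 4.7 in *hlk* and 8.87 to 9.15 (median 9.05) in *hMYC-2* (at least 3.35), and its target *blnk* read 4.47, 4.54 and 4.46 in *hlk* and 8.31 to 9.24 (median 8.69) in *hMYC-2* (at least 3.08). The kinases *btk* and *syk* rose from background by at least 2.69 and 0.84. For each of *pax5*, *blnk*, *btk*, *syk*, *igl1c1*, *gata3*, *runx3*, *ets1*, *trac* and *myca* the exact two-sided permutation test gave p = 0.0238, the smallest that 6 arrays against 3 allow. Any gene whose arrays do not overlap gives this p. Most of these genes were named on that condition and the others by the study from these arrays, so the p adds no separate evidence. A second, dim probe set of *pax5* had means of 5.57 in *hMYC-2* and 5.58 in *hlk* and did not pass the test.

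*cxcr4a*, a receptor of the chemokine CXCL12 that holds lymphoid precursors in their niche, read 6.22, 5.1 and 5.91 in *hlk* and 12.24 to 12.47 (median 12.35) in *hMYC-2* (6.61, standard error 0.26, adjusted p = 2.15e-09). Its paralog *cxcr4b* read 8.63, 9.0 and 9.09 in *hlk* and 11.95 to 12.26 (median 12.1) in *hMYC-2* (3.19). The MHC class II invariant chains *cd74a* and *cd74b* rose by 2.12 and 2.73, while the other 6 measured genes of class II presentation did not pass the test. The 3 B lineage members that were lower were *ptpn6*, the phosphatase SHP-1 that dampens B and T cell receptors, with 9.91, 9.73 and 9.34 in *hlk* and 6.6 to 7.12 (median 7.07) in *hMYC-2* (−2.69, adjusted p = 1.33e-06), the exchange factor *vav3b* (at least 0.66) and the transcription factor *mef2ca* (−1.08). The *mef2ca* call was lost with the replicate block, and so was that of *plcg2*, the phospholipase of the B cell receptor (1.69), which was lost without *hlk* replicate 1 too.

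**Figure D2:**
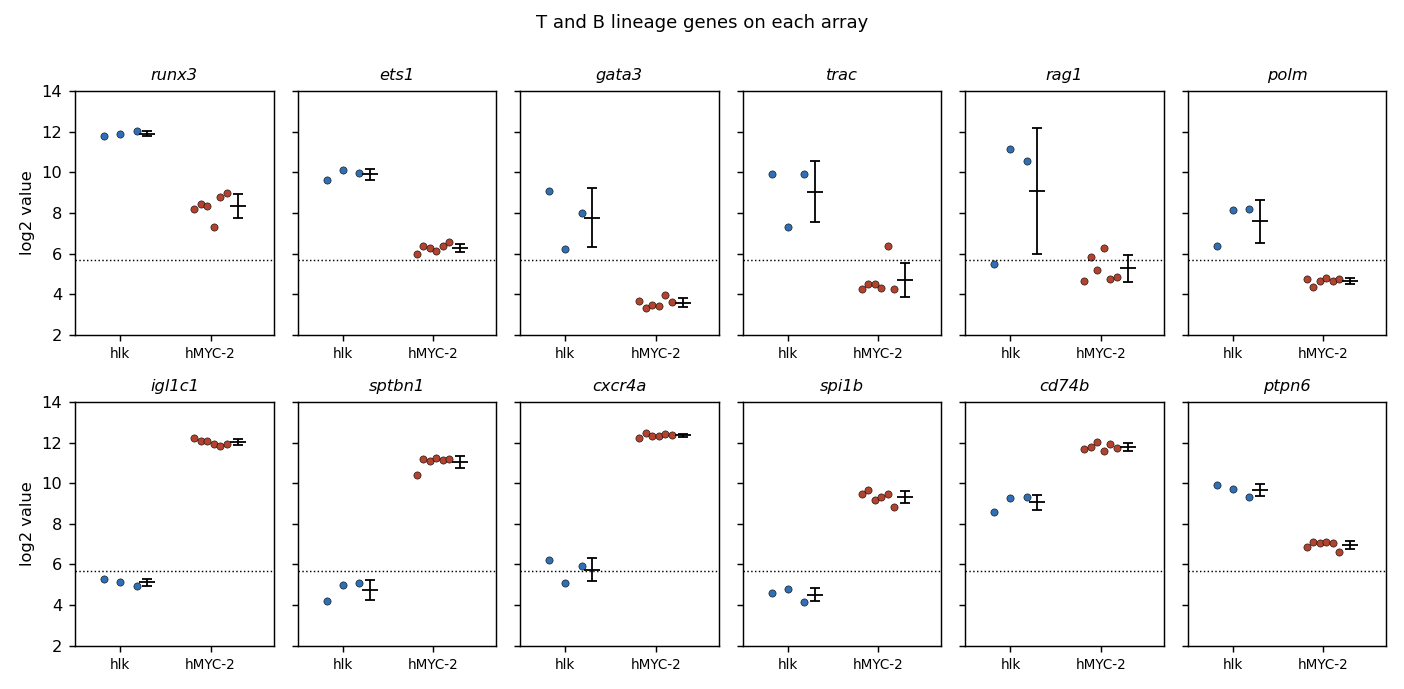
Log2 value on each array for 12 genes in *hlk* (blue, 3 arrays) and *hMYC-2* (red, 6 arrays), with the mean and SD in black and background as a dotted line. The T cell and recombination genes of the upper row are high in *hlk*, except *rag1* in replicate 1, which read 5.5, and the genes of the lower row lie higher in *hMYC-2*, up to 12.47 for *cxcr4a*, except *ptpn6*, which is lower there.

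The phagocyte NADPH oxidase, an enzyme of membrane and cytosolic subunits that makes superoxide in neutrophils, macrophages and B cells, had 3 measured genes, and all 3 were higher. *ncf1*, the organizer p47phox, went from background to 11.01 to 12.02 (median 11.42, difference at least 5.73, adjusted p = 3.33e-11), and *cyba*, the p22phox membrane subunit, read 5.72, 4.92 and 5.3 in *hlk* and 8.27 to 8.92 (median 8.66) in *hMYC-2* (3.33, adjusted p = 1.49e-07). *nrros*, which in mammals lowers the amount of the oxidase, rose as well (4.88, adjusted p = 1.11e-07). *ncf4*, the p40phox subunit, stayed within background in both groups, so no size is given, and its call was lost with the replicate block. Among markers of neutrophils, 1 of 9 was lower and 0 higher, and among those of macrophages 6 of 13 were lower and 0 higher. Of these macrophage markers 10 lay within background in both groups, and the count of lower ones was 2 without *hlk* replicate 1, 2 with the replicate block and 1 with equal housekeeping genes. *cd68*, a lysosomal protein of macrophages, read 10.4, 10.08 and 10.19 in *hlk* and 9.5 to 9.84 (median 9.68) in *hMYC-2*.

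Of the transcription factors of blood development, 9 of 51 measured were higher (17.6%) and 7 lower (13.7%). *gata2a*, a factor of stem cells and mast cells, went from background to 6.56 to 7.87 (median 7.5, difference at least 1.76, adjusted p = 3.07e-07). *sox19a*, a SOXB1 gene of the zebrafish embryo, rose by at least 1.61, and *lmo2*, a bridging factor of early blood cells, read 3.7, 3.58 and 3.32 in *hlk* and 4.93 to 6.03 (median 5.7) in *hMYC-2*, where 3 of 6 arrays were above background. *sox11a*, a neural SOX gene, read 7.83, 7.94 and 7.54 in *hlk* and was within background in all *hMYC-2* arrays (lower by at least 2.09, adjusted p = 7.94e-06). *etv6*, a repressor of the ETS family that is often translocated in human ALL, was lower at −1.06. The helix-loop-helix factors moved apart: *id3*, an inhibitor of E proteins, was higher at 2.6, although *hlk* replicate 1 lay within the *hMYC-2* range, and so was the E protein *tcf12* (2.11), while *id2a* was lower at −1.57. Without *hlk* replicate 1 the list had 8 higher and 11 lower.

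The zebrafish *MYC* family moved in both directions. Of 10 measured genes of the family and its partners, 3 were lower and 1 higher. *myca* read 10.49, 10.62 and 10.57 in *hlk* and 6.58 to 7.18 (median 6.75) in *hMYC-2* (−3.74, adjusted p = 1.97e-05), and *myclb*, an *MYCL* ortholog, read 7.93, 6.59 and 8.07 in *hlk* and 5.01 to 5.76 (median 5.18) in *hMYC-2* (−2.24, adjusted p = 0.000259). *mych*, a family member of fish, read 7.89, 7.35 and 7.23 in *hlk* and 9.65 to 10.83 (median 10.39) in *hMYC-2* (2.87, adjusted p = 0.00163). The 2 groups did not overlap for any of the 3. *mycb* (−0.99) and the partner *max* (−0.2) did not pass the test, nor did *mycn*, which lay within background in both groups. *mxd4*, an antagonist that also binds MAX, was lower at −1.21, a call lost with the replicate block. The level of the human transgene itself was not analysed here.

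Genes of ribosome biogenesis, the nucleolar machinery that makes and folds ribosomal RNA, were higher in *hMYC-2* ALL. Of 111 measured, 49 were higher (44.1%) and 4 lower (3.60%), against 12.4% and 15.2% of all named genes. The median difference was 0.39, and 92 of the 111 differences were above 0. With the replicate block 35 were higher and 2 lower, and with equal housekeeping genes 52 and 2. The largest rise was in *mak16*, a factor of the large subunit, which read 5.05, 5.76 and 6.12 in *hlk* and 7.45 to 7.92 (median 7.82) in *hMYC-2* (2.13, adjusted p = 6.56e-06). *wdr75*, of the small subunit processome, read 8.25, 8.47 and 7.94 in *hlk* and 9.19 to 9.43 (median 9.28) in *hMYC-2* (1.08), and *rcl1*, which cleaves the rRNA precursor, rose by 1.18. Well known nucleolar proteins were higher as well, fibrillarin (*fbl*) by 1.03, *nolc1* by 0.84, *sdad1* by 1.12 and nucleophosmin (*npm1a*) by 0.66, from 10.75, 10.85 and 10.73 in *hlk* to 11.31 to 11.61 (median 11.4) in *hMYC-2*. A second, dimmer probe set of *npm1a* did not pass the test.

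The 4 members that were lower included *bop1*, of the PeBoW complex of the large subunit, which read 8.03, 8.28 and 8.53 in *hlk* and 6.81 to 7.12 (median 6.91) in *hMYC-2* (−1.35, adjusted p = 1.93e-06), and *nol12* (−1.14). Of the 4 probe sets of *bop1*, 2 were lower and 2 did not pass.

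The ribosomal proteins themselves differed little. Of 73 genes of cytosolic ribosomal proteins, 4 were higher and 2 lower, and the median difference was 0.02. They were very bright, with a mean log2 value of 13.61 to 13.74 in *hlk* and 13.70 to 13.74 in *hMYC-2*. Of all 139 probe sets with a mean from 12 to 16, only 9 were higher and 11 lower. Whether probe sets this bright can show a difference as well as dimmer ones was not tested. The called rises were at most 0.31 in *rps26l*, with 13.76, 13.63 and 13.56 in *hlk* and 13.94 to 13.98 (median 13.96) in *hMYC-2*, and the falls were −0.27 (*rplp2*) and −0.74 (*faub*). All 6 calls were lost with the replicate block, and with equal housekeeping genes 1 was higher and 0 lower. Mitochondrial ribosomal proteins had 11 of 59 higher and 3 lower (median 0.16), with *mrps5* at 1.59 (adjusted p = 4.72e-06) and *mrpl2* at 0.99. With the replicate block 5 were higher and 0 lower, and with equal housekeeping genes 13 and 1.

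Nucleotide and one-carbon synthesis had 13 of 51 measured genes higher and 6 lower (median 0.12). The largest rise was in *ctps1a*, the CTP synthase that lymphocytes depend on, with 9.22, 9.37 and 8.94 in *hlk* and 11.36 to 11.84 (median 11.69) in *hMYC-2* (2.48, adjusted p = 2.99e-08). The purine pathway rose at *ppat*, its first committed enzyme (1.61), *paics* (1.05) and *adsl* (1.43), and *mthfd1b*, a folate enzyme, rose by 1.75. The falls included *mthfd2*, the mitochondrial folate enzyme, with 8.69, 7.56 and 9.88 in *hlk* and 6.12 to 7.46 (median 6.37) in *hMYC-2* (−2.06), the uridine kinase *uck2a* (−1.35) and the nucleoside diphosphate kinase *nme3* (−1.1). Members of 1 pathway thus moved in opposite directions, *mthfd1b* and *mthfd2* among them.

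Translation factors had 13 of 68 higher and 5 lower (7 and 3 with the replicate block, 13 and 1 with equal housekeeping genes). The 2 largest rises were in genes that restrain initiation by binding eIF4E, *eif4ebp3l* and *eif4ebp1*. The first read 4.76, 6.19 and 5.28 in *hlk* and 8.03 to 8.83 (median 8.2) in *hMYC-2* (2.89), and the second rose by 1.74 (adjusted p = 1.32e-06). A paralog of these genes that also binds eIF4E was called lower, with arrays that did not overlap, so the family moved in both directions. *eif6*, which keeps the large subunit free until it is mature, rose by 0.53. Among aminoacyl-tRNA synthetase genes, 4 of 24 were lower and 1 higher, with *farsa*, the alpha subunit of the phenylalanine enzyme, at 10.27, 10.69 and 10.53 in *hlk* and 6.8 to 7.47 (median 7.13) in *hMYC-2* (−3.36, adjusted p = 5.55e-09). With equal housekeeping genes 2 were lower.

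The cell cycle lists had few calls. Of 62 mitosis genes, 2 were higher and 0 lower, and of 62 DNA replication genes 3 were higher and 5 lower, with median differences of −0.22 and −0.32. With the replicate block 4 mitosis genes were lower and 2 higher, and 8 replication genes lower and 1 higher. The arrays of 1 group varied widely here: the median of the mitosis genes, relative to the *hlk* mean, ran from −0.66 to 0.72 over the 3 *hlk* arrays and from −0.55 to 0.22 over the 6 *hMYC-2* arrays. *zw10*, a kinetochore protein, rose by 1.56 (adjusted p = 0.00193). *cdc45*, of the replicative helicase, read 7.33, 6.35 and 6.88 in *hlk* and 4.67 to 6.12 (median 5.11) in *hMYC-2* (−1.61), and *hells*, a chromatin remodeler of replicating cells, was lower at −1.75. A second, dim probe set of *hells* had a difference of 0.09 and did not pass the test. *ccng1*, a cyclin that p53 induces, rose by 2.07 and *btg2*, an antiproliferative gene, by 1.5, the last call being lost without *hlk* replicate 1 and with the block.

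**Figure D3:**
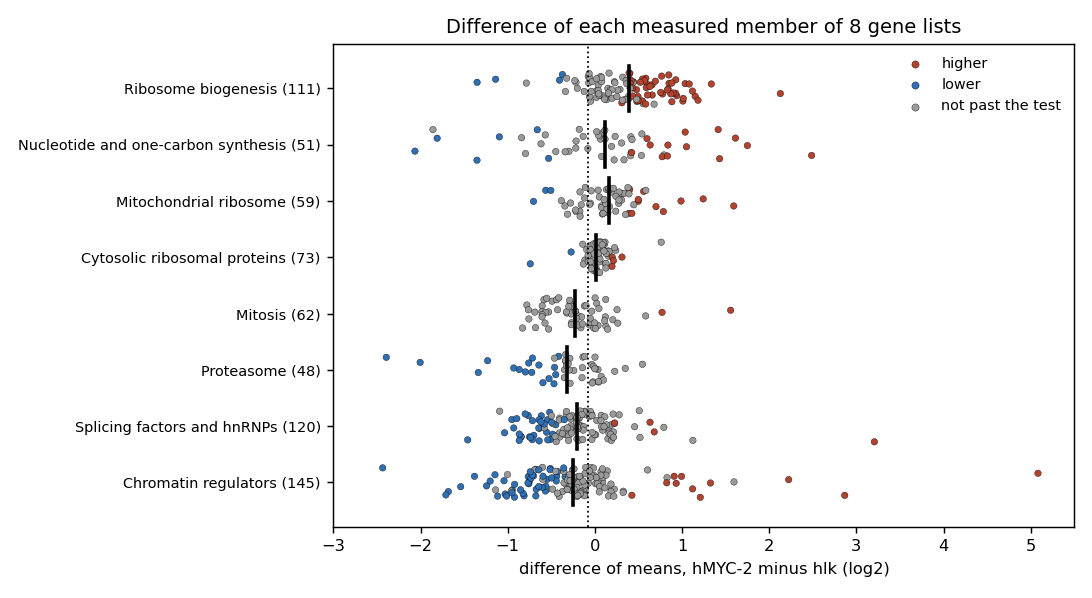
Difference of means (log2, *hMYC-2* minus *hlk*) for every measured member of 8 gene lists, red where higher, blue where lower and grey where the test was not passed, with the list's median as a black bar and the median of all named genes as a dotted line (−0.08). Ribosome biogenesis lies to the right (median 0.39), the cytosolic ribosomal proteins cluster near 0 (median 0.02), and the proteasome (−0.32), splicing (−0.21) and chromatin (−0.26) lists lie to the left.

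Genes of the endoplasmic reticulum, where secreted and membrane proteins are folded, had 18 of 78 higher and 6 lower (median 0.06). *xbp1*, the factor of the unfolded protein response that plasma cells need, read 7.22, 7.05 and 7.85 in *hlk* and 9.91 to 11.21 (median 10.4) in *hMYC-2* (3.07, adjusted p = 0.000607). Chaperones and enzymes of the compartment rose as well, *dnajb11* by 2.64 (adjusted p = 1.72e-06), *hsp90b1* by 1.84, *syvn1*, the ubiquitin ligase of ER degradation, by 1.49, *hspa5*, the chaperone BiP, by 1.16, *pdia3* by 1.03 and *canx* by 1.01. *edem1* and *derl2*, which also act in ER degradation, were lower at −1.7 and −0.68, with *edem1* at 9.31, 9.18 and 8.71 in *hlk* and 7.13 to 7.73 (median 7.36) in *hMYC-2*. A second probe set of *derl2* had a difference of −0.30 and did not pass the test. With equal housekeeping genes 17 were higher and 3 lower. In *hMYC-1* ALL, against the same *hlk* arrays, the difference of *xbp1* was 0.9 and that of *hspa5* 0.05. Neither gene is among the named genes, listed below, whose direct difference between *hMYC-2* and *hMYC-1* passed limma's test. The mitochondrial chaperonins *hspd1* and *hspe1* rose by 1.51 and 0.58, and heat shock proteins and chaperonins as a whole had 20 of 92 higher and 10 lower (14 and 5 with the replicate block, 20 and 4 with equal housekeeping genes).

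Immediate early genes, which cells switch on within minutes of a stimulus and also when tissue is dissociated, had 16 of 61 higher and 5 lower (median 0.44). *egr2b* read 8.04, 5.43 and 6.64 in *hlk* and 10.6 to 12.28 (median 11.88) in *hMYC-2* (4.97, adjusted p = 0.00111). *fosl2*, an AP-1 subunit, read 6.31, 6.38 and 5.83 in *hlk* and 8.66 to 10.44 (median 9.7) in *hMYC-2* (3.44, adjusted p = 1.58e-05), and *jun*, its partner, rose by 2.06. The arrays of the 2 groups did not overlap for any of these genes, nor for *dusp5*, a phosphatase that ERK signaling induces (2.95), *klf2a*, a factor of resting lymphocytes (4.06), or *sgk1*, a kinase that stress and steroids induce (at least 3.0). *ddit4*, an inhibitor of mTOR, read 6.13, 5.71 and 4.75 in *hlk* and 9.05 to 12.02 (median 11.4) in *hMYC-2* (5.44, adjusted p = 0.000227). Among genes of the integrated stress response, 5 of 30 were higher (16.7%) and 4 lower (13.3%), or 6 and 2 with equal housekeeping genes. The rises included *cth* at 1.93, *chac1* at 1.43 and *asns* at 0.56, the last call being lost with the replicate block. A second probe set of *asns* (0.40) did not pass the test. The falls included *mthfd2*, given above, the largest fall of this list. The falls of the immediate early list included *myca* and *socs3b*, and with equal housekeeping genes 18 of it were higher and 3 lower, with the replicate block 13 and 3. No source used here gives the time from dissection to lysis, and its part in these genes was not tested.

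The same *hlk* arrays set against *hMYC-1* ALL gave other values for several of these genes. The difference in *hMYC-1* was −1.15 for *fosl2*, −1.29 for *jun*, −0.29 for *dusp5* and −0.65 for *chac1*, while it was 4.24 for *ddit4* and 3.55 for *klf2a*. The direct difference of *hMYC-2* and *hMYC-1* passed limma's test for the first 4 and for *sgk1*, which was above background on 2 of the 4 *hMYC-1* arrays (adjusted p from 7.51e-05 to 0.00956), and the study had split these groups by clustering the same arrays.

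**Figure D4:**
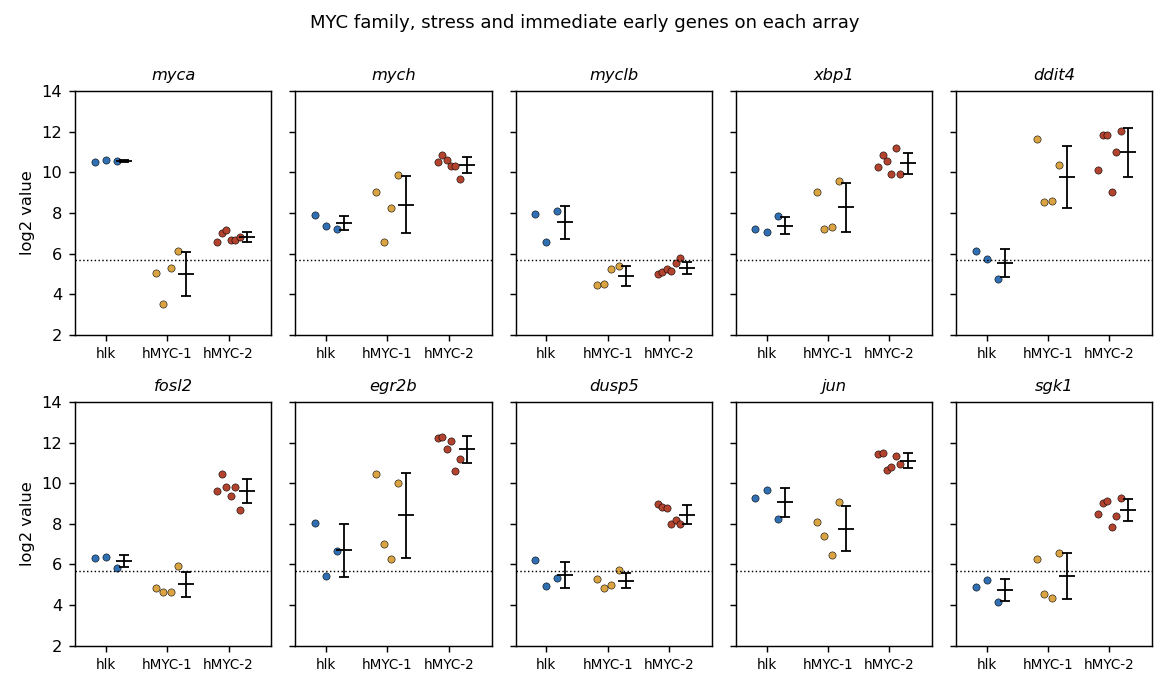
Log2 value on each array in *hlk* (blue, 3 arrays), *hMYC-1* (yellow, 4 arrays) and *hMYC-2* (red, 6 arrays), with the mean and SD in black and background as a dotted line. *myca* and *myclb* are lower on all 10 *hMYC* arrays than on any *hlk* array, and the early genes are high in *hMYC-2*, where *fosl2* read 8.66 to 10.44 against at most 6.38 in *hlk*.

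Among the lists with more falls than rises, chromatin regulators held the largest number of falls. Of 145 measured, 45 were lower (31.0%) and 11 higher (7.59%), with a median difference of −0.26. With the replicate block 38 were lower, without *hlk* replicate 1 43 were lower, and with equal housekeeping genes 31 were lower and 11 higher. *ezh2*, the methyltransferase of Polycomb repressive complex 2, read 9.26, 9.12 and 9.66 in *hlk* and 7.47 to 8.3 (median 7.69) in *hMYC-2* (−1.54, adjusted p = 3.74e-05), and both of its other probe sets were lower. *smarca1*, an ISWI remodeler, read 8.55, 8.73 and 8.44 in *hlk* and 5.67 to 6.48 (median 6.21) in *hMYC-2* (−2.44, adjusted p = 4.07e-06). Other members that were lower were the remodeler subunits *arid2* (−1.04) and *smarcd1* (−1.01), the histone methyltransferase *kmt2ca* (−1.2), the histone demethylase *kdm6al* (−1.71), the remodeler *chd4a* (−1.24) and the nucleosome-binding *hmgn6* (−1.38). Of the 3 probe sets of *kdm6al*, only the brightest passed.

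The rises in this list were fewer and included the largest single difference in it. *prmt2*, an arginine methyltransferase, read 3.86, 3.14 and 3.84 in *hlk*, within background, and 8.33 to 9.02 (median 8.7) in *hMYC-2* (at least 3.02, adjusted p = 1.15e-08). *hdac9b*, a class IIa deacetylase, rose by at least 0.47, *hmgb3b* by 2.87 and *setd7*, a lysine methyltransferase, by 1.32.

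Splicing factors and hnRNPs, the proteins that remove introns and package nascent RNA, had 33 of 120 lower (27.5%) and 4 higher (3.33%), with a median of −0.21. The falls were mostly under 1. *srsf6b* read 10.9, 10.69 and 10.84 in *hlk* and 9.72 to 10.07 (median 9.99) in *hMYC-2* (−0.87, adjusted p = 2.38e-05), *srsf2b* fell by 0.9, *sf3a3*, of the U2 particle, by 0.93 and *hnrnpd* by 0.64. *ptbp1b*, the polypyrimidine tract binding protein, read 7.13, 7.41 and 7.82 in *hlk* and 5.72 to 6.29 (median 5.97) in *hMYC-2* (−1.46, adjusted p = 5.62e-05). The groups were separate for each of these genes by its brightest probe set. A second probe set of *hnrnpd* had a difference of −0.36 and did not pass the test. The exception in size was a rise, in *rbm47*, which was within background in *hlk* and read 6.76 to 7.7 (median 7.31) in *hMYC-2* (at least 1.6). With equal housekeeping genes 16 members were lower and 3 higher, with the replicate block 25 and 3.

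The proteasome, which degrades ubiquitin-tagged proteins, had no gene higher and 18 of 48 lower (37.5%), with a median of −0.32. With equal housekeeping genes 10 were lower, without *hlk* replicate 1 14 and with the replicate block 13. The largest falls were in subunits of the immunoproteasome, the form that cuts peptides for MHC class I. *psmb9a* read 10.2, 10.25 and 10.16 in *hlk* and 7.16 to 8.31 (median 7.87) in *hMYC-2* (−2.39, adjusted p = 6.59e-06), *psmb13a* 10.43, 10.64 and 10.59 in *hlk* and 8.13 to 8.9 (median 8.58) in *hMYC-2* (−2.0), *psmb12* 10.63, 10.48 and 10.62 in *hlk* and 8.89 to 9.49 (median 9.24) in *hMYC-2* (−1.34) and *psmb8a* 9.73, 9.74 and 10.26 in *hlk* and 8.23 to 9.07 (median 8.69) in *hMYC-2* (−1.23). Every *hMYC-2* array lay below every *hlk* array in all 4. The activator *psme1* fell by 0.93, and subunits of the constitutive core fell by less, *psma2a* by 0.87 and *psmb4* by 0.72.

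Genes of MHC class I presentation went both ways, 3 of 18 higher and 5 lower, the last with the immunoproteasome among them. The light chain of class I molecules, *b2m*, read 11.21, 12.04 and 12.3 in *hlk* and 11.04 to 11.75 (median 11.64) in *hMYC-2* and did not pass the test (−0.3). *mhc1ufa*, a class I heavy chain gene, read 2.57, 11.64 and 11.72 in the *hlk* arrays, so that replicate 1 lay at background and the other 2 above all *hMYC-2* arrays, which read 10.26 to 11.12 (median 10.96) (difference 2.2, adjusted p = 0.315). Without *hlk* replicate 1 the difference was −0.83 (adjusted p = 0.018), so the direction turned with 1 array. Class I genes of zebrafish differ between haplotypes, and no haplotype of these fish is given in the sources used here.

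Ubiquitin conjugation and removal had 38 of 167 measured genes lower (22.8%) and 8 higher (4.79%), with a median of −0.19. Under equal housekeeping genes the counts were 17 and 10, and with the replicate block 20 and 5. With a shrinkage t, the kind of test the authors used, they were 3 and 1. That test had 248 of all 8793 named genes lower and 363 higher, so this list showed no excess of falls there. *trim25*, a ligase of antiviral signaling, read 7.95, 7.49 and 7.47 in *hlk* and 6.4 to 6.7 (median 6.53) in *hMYC-2* (−1.09), *usp7*, the deubiquitinase of MDM2, fell by 0.61 and *ube2v1* by 0.98. *usp7* has a second probe set that did not pass, with a difference of 0.50. *rnf144b*, a ligase of the RBR family, was higher, from 3.27, 2.9 and 2.66 in *hlk* to 5.13 to 6.08 (median 5.53) in *hMYC-2*, near background.

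General transcription factors and Mediator had 12 of 66 lower and 6 higher (median −0.14). The Mediator genes *med20* and *med8* fell by 0.94 and 0.75, and *gtf2a1*, of TFIIA, read 7.84, 8.37 and 8.42 in *hlk* and 6.97 to 7.24 (median 7.11) in *hMYC-2* (−1.08, adjusted p = 2.21e-05), while *tcea3*, an elongation factor, rose from background by at least 1.81 (adjusted p = 5.07e-06). With equal housekeeping genes 6 were lower and 9 higher, and with the replicate block 7 and 5. With equal housekeeping genes and without *hlk* replicate 1, 11 were lower and 7 higher. The balance of this list thus turned with the scaling only when that array was included.

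Protein phosphatases had 25 of 91 lower (27.5%) and 6 higher (6.59%), and 12 and 6 with equal housekeeping genes. *ptpn11b*, a paralog of the phosphatase SHP-2, read 8.0, 8.21 and 7.65 in *hlk* and lay within background in *hMYC-2* (lower by at least 2.27, adjusted p = 4.47e-07). *ppp1r10* fell by 1.5 and *ppm1da*, the p53-induced phosphatase Wip1, by 0.85, each with a second probe set that did not pass. The phosphatases of regenerating liver split: *ptp4a1* read 9.77, 10.0 and 10.43 in *hlk* and 8.17 to 8.45 (median 8.29) in *hMYC-2* (−1.77), and *ptp4a3a* read 9.99, 8.66 and 9.18 in *hlk* and 12.25 to 12.52 (median 12.38) in *hMYC-2* (3.1, adjusted p = 3.06e-07). Neither pair of groups overlapped.

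DNA repair genes had 12 of 56 lower and 5 higher, each fall being under 1 and most with arrays that overlapped, such as *chek1* (−0.89) and *xrcc1* (−0.76). With equal housekeeping genes 3 were lower and 7 higher, and with the replicate block 8 and 1. *xpc*, the damage sensor of nucleotide excision repair, was higher at 1.21 (adjusted p = 0.00019). A second probe set of *xpc* had a difference of 1.33 and did not pass (limma's adjusted p = 0.11).

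**Figure D5:**
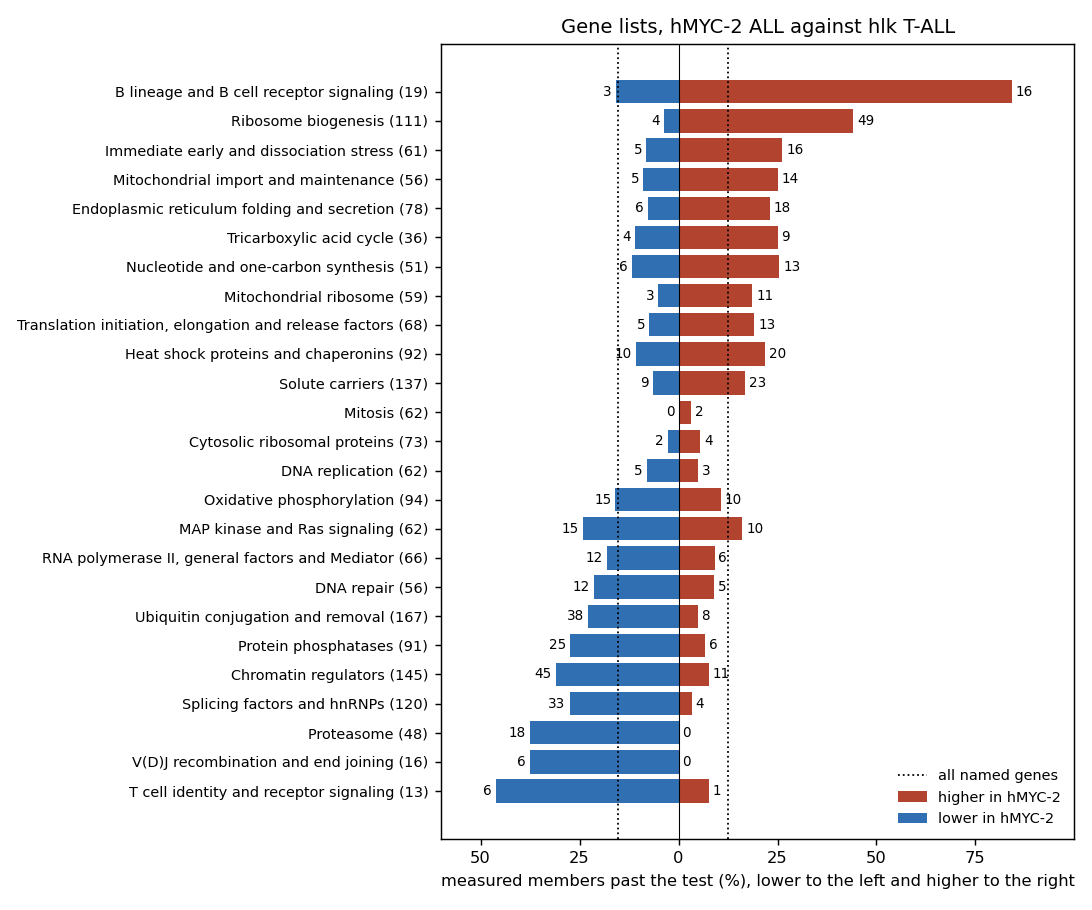
Share of the measured members of 25 gene lists that were lower (blue, to the left) or higher (red, to the right) in *hMYC-2* ALL than in *hlk* T-ALL, with counts at the bars, the number measured in brackets and the shares over all named genes as dotted lines (15.2% lower, 12.4% higher). Of these 25, picked from 66 lists, B lineage genes (16 of 19) and ribosome biogenesis (49 of 111) reach furthest to the right. T cell genes (6 of 13), V(D)J recombination (6 of 16) and the proteasome (18 of 48) reach furthest to the left. Lists not drawn include the phagocyte NADPH oxidase (3 of 3 higher), NK and cytotoxic markers (2 of 4 higher) and macrophage markers (6 of 13 lower).

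Notch, Wnt and Hedgehog signaling, pathways that guide thymic and precursor cell fate, had 7 of 59 lower and 4 higher (6 and 2 with the replicate block). These shares, 11.9% and 6.78%, were under those of all named genes. The Notch ligand *jag1a* read 8.84, 9.1 and 9.22 in *hlk* and 4.54 to 5.98 (median 5.14) in *hMYC-2* (−3.88, adjusted p = 2e-05), where 1 array of 6 was above background, and *nrarpa*, a target and inhibitor of Notch, was lower by at least 0.9, while its 3 other probe sets, all dim, did not pass. Another ligand, *dlc*, moved the other way, from 4.99, 4.94 and 4.51 in *hlk*, within background, to 9.32 to 10.07 (median 9.59) in *hMYC-2* (at least 3.94, adjusted p = 2.32e-08), and both of its other probe sets were higher too. *wnt11* read 8.7, 7.97 and 7.81 in *hlk* and lay within background in *hMYC-2* (lower by at least 2.48, adjusted p = 2.45e-09). The beta-catenin gene *ctnnb2* read 9.63, 9.65 and 9.87 in *hlk* and 7.61 to 7.99 (median 7.8) in *hMYC-2* (−1.91), and *axin1*, which marks beta-catenin for degradation, was lower at −1.05. *hhip*, which binds and blocks Hedgehog ligands, rose from background by at least 3.35 (adjusted p = 3.09e-09). In the TGF beta pathway the receptor *tgfbr2b* went from 4.98, 3.91 and 3.65 in *hlk* to 7.84 to 9.27 (median 8.69) in *hMYC-2* (at least 2.99), and the BMP signal carrier *smad5* rose by 2.16, although its second, dim probe set did not pass.

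Cytokine signaling had 11 of 65 genes higher (16.9%) and 8 lower (12.3%), or 12 and 3 with equal housekeeping genes. Of suppressors of cytokine signaling, *socs1a* read 9.9, 11.68 and 10.93 in *hlk* and 6.84 to 8.12 (median 7.19) in *hMYC-2* (−3.57, adjusted p = 0.000465), and *socs3b* fell by 1.55. The Janus kinases split, *jak1* at −0.81 and *jak2a* at 1.46 (adjusted p = 2.14e-06). Of interferon response genes 5 of 18 were lower and 3 higher (3 and 2 with the replicate block), with *gbp1*, a guanylate-binding protein, at −1.2 and *irf7* at 1.25, the latter call being lost with the block and without *hlk* replicate 1.

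In the MAP kinase pathway 15 of 62 genes were lower and 10 higher, which became 5 and 11 with equal housekeeping genes and 9 and 5 with the replicate block. With equal housekeeping genes and without *hlk* replicate 1 the counts were 12 and 11. *spred1*, an inhibitor of Ras signaling, read 8.01, 9.82 and 8.64 in *hlk* and lay within background in *hMYC-2* (lower by at least 3.14, adjusted p = 4.47e-07), and *rps6ka1*, the kinase RSK1, was lower at −1.62. Of the 4 probe sets of *spred1* 2 were lower and 2, within background, did not pass.

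In PI3 kinase and mTOR signaling 11 of 60 were higher and 6 lower. *pik3c3*, the class III kinase of endosomes and autophagy, read 11.05, 10.5 and 11.23 in *hlk* and 7.5 to 7.66 (median 7.6) in *hMYC-2* (−3.34, adjusted p = 5.89e-07). Its class II relative *pik3c2b* read 7.85, 7.03 and 7.01 in *hlk* and 9.79 to 10.47 (median 10.14) in *hMYC-2* (2.85). Each was separate between the groups, in opposite directions. *deptor*, an inhibitor of mTOR, rose from background by at least 1.82 and the insulin receptor substrate *irs2a* by at least 2.32.

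Adhesion genes had 13 of 113 higher and 14 lower (14 and 8 with equal housekeeping genes), shares near or under those of all named genes, and 84 of the 113 lay within background in both groups. N-cadherin (*cdh2*), which joins cells of neural and mesenchymal tissue, was lower by at least 4.35, and *itgae.2*, an integrin alpha E gene, the partner that holds T cells to epithelium, read 8.46, 8.86 and 8.33 in *hlk* and lay within background in *hMYC-2* (at least 2.87, adjusted p = 9.37e-06). The tetraspanins *tspan36* and *tspan2a* rose from background to 9.69 to 10.04 (median 9.85) and 9.76 to 9.94 (median 9.87), that is by at least 4.19 and 4.17, and so did the junction protein *jam2a* (at least 3.83). The groups did not overlap for any of these genes, which was a condition of naming them.

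The actin-sequestering thymosin beta genes *tmsb* and *tmsb1* were higher. *tmsb1* read 6.15, 4.74 and 4.99 in *hlk* and 10.94 to 11.57 (median 11.12) in *hMYC-2* (5.85, adjusted p = 2.27e-06), and *tmsb* rose from background by at least 3.7. Filamins moved apart: *flna* read 7.43, 8.6 and 8.14 in *hlk* and 9.44 to 10.34 (median 10.24) in *hMYC-2* (2.04), and *flncb* read 8.76, 8.59 and 8.13 and was within background (lower by at least 2.81). *coro1a*, an actin regulator of leukocytes, and the capping protein *capza1a* were lower at −0.87 and −0.93, and *tagln2* was higher at 4.04.

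Neuronal and synaptic genes had 11 of 112 higher and 16 lower (8 and 6 with the replicate block, 11 and 7 with equal housekeeping genes), and 85 were within background in both groups. The shares, 9.82% higher and 14.3% lower, were near or under those of all named genes. *sv2bb*, a synaptic vesicle gene, read 7.45, 11.39 and 10.2 in *hlk* and was lower by at least 4.0, and *nsg2*, a neuronal endosome gene, read 9.03, 9.59 and 9.95 in *hlk* and 4.1 to 5.86 (median 5.43) in *hMYC-2* (−4.26), where 1 array of 6 was above background. The paralogs *dpysl5a* and *dpysl5b*, which steer growing axons, went in opposite directions: *dpysl5a* from 4.11, 3.17 and 3.56 in *hlk* to 7.45 to 8.58 (median 8.32) in *hMYC-2* (at least 2.52), and *dpysl5b* from 7.82, 8.44 and 8.2 to 4.74 to 6.64 (median 5.56, difference −2.49). The semaphorin *sema4e* was lower by at least 1.66. Paralogs called in opposite directions were also seen in the filamins, in *ptp4a1* and *ptp4a3a*, in the Notch ligands, in the MYC family and in the genes that bind eIF4E.

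Genes of glycan synthesis had 13 of 85 higher and 13 lower, shares near those of all named genes, or 15 and 5 with equal housekeeping genes. *b3gnt5a*, which starts the lacto-series glycolipids, read 9.13, 10.83 and 11.08 in *hlk* and 3.29 to 4.32 (median 3.65) in *hMYC-2*, all within background (lower by at least 4.67, adjusted p = 1.73e-05). The sulfotransferases *hs6st1a*, of heparan sulfate, and *chst2a* moved apart, the first lower by at least 1.98 and the second higher by at least 2.75. Solute carriers had 23 of 137 higher and 9 lower (23 and 3 with equal housekeeping genes), with the potassium chloride cotransporter *slc12a7b* at 4.04, 3.76 and 3.33 in *hlk* and 8.3 to 8.47 (median 8.38) in *hMYC-2* (at least 2.7, adjusted p = 1.27e-10) and the amino acid carrier *slc43a2a* at 3.08.

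Energy metabolism was mixed. In glycolysis and the pentose phosphate pathway 8 of 41 genes were higher and 5 lower. The counts were 7 and 1 with equal housekeeping genes, 7 and 3 with the replicate block and 6 and 9 without *hlk* replicate 1, so the balance turned with that array. *ldha*, lactate dehydrogenase and a known MYC target in mammals, read 7.29, 8.02 and 7.58 in *hlk* and 9.43 to 10.41 (median 10.03) in *hMYC-2* (2.39, adjusted p = 1.39e-05), and *pgd*, of the pentose phosphate pathway, rose by 0.99. The upstream enzymes *pfkpa*, *aldocb* and *pkma* were lower at −0.9, −0.94 and −1.06, of which the first 2 calls were lost with equal housekeeping genes, the *pfkpa* call with the replicate block too. A second probe set of *aldocb* had a difference of −0.13 and did not pass the test. In the tricarboxylic acid cycle 9 of 36 were higher and 4 lower (9 and 2 with equal housekeeping genes), with fumarase (*fh*) at 1.45 (adjusted p = 3.77e-07) and the cytosolic malate dehydrogenase *mdh1ab* at 2.54, against *idh2* at −1.04 and the mitochondrial *mdh2* at −0.5, whose call was lost with equal housekeeping genes.

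Oxidative phosphorylation had 10 of 94 higher and 15 lower, shares near those of all named genes. *cox6b1*, of complex IV, stood out with 11.17, 11.31 and 10.75 in *hlk* and 7.62 to 8.66 (median 8.32) in *hMYC-2* (−2.82, adjusted p = 9.54e-06), while *cox5aa*, of the same complex, fell by 0.53, a call lost with equal housekeeping genes. *ndufaf5*, an assembly factor of complex I, rose by 1.33. Without *hlk* replicate 1 the counts were 8 and 7, with equal housekeeping genes 9 and 3 and with the block 6 and 5. Genes of mitochondrial import and maintenance had 14 of 56 higher and 5 lower (8 and 3 with the replicate block, 15 and 3 without *hlk* replicate 1), with the outer membrane channel *vdac3* at 1.42, a call lost with the block, and the fission dynamin *dnm1l* at −1.0.

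Apoptosis and p53 target genes had 8 of 43 higher and 5 lower. The counts were 9 and 2 with equal housekeeping genes, 7 and 3 with the replicate block and 10 and 8 without *hlk* replicate 1. *pdcd4b*, an inhibitor of translation, read 7.85, 7.95 and 7.82 in *hlk* and 5.48 to 6.02 (median 5.84) in *hMYC-2* (−2.08, adjusted p = 2.31e-07), *bcl2l1*, the survival gene BCL-XL, was lower at −0.9, and *perp*, a p53 target, rose by at least 0.96.

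Of the vesicle trafficking list 28 of 180 were higher and 27 lower, shares near those of all named genes. The counts were 27 and 10 with equal housekeeping genes and 17 and 15 with the replicate block. *rab11bb*, a small GTPase of recycling endosomes, read 7.88, 8.35 and 8.24 in *hlk* and 5.29 to 5.6 (median 5.39) in *hMYC-2* (lower by at least 2.48, adjusted p = 3.71e-08), and *ap1b1*, of the clathrin adaptor at the Golgi, was lower at −1.88, as was the endosomal *rab5c* (−1.08). *arl11*, a GTPase of leukocytes, read 7.35, 6.19 and 7.23 in *hlk* and 9.56 to 10.44 (median 10.06) in *hMYC-2* (3.15), and the sorting nexin *snx6* was higher at 0.81. Among tubulins and motors 10 of 59 were lower (16.9%, near the share of all named genes) and 2 higher (3.39%). Only 6 were lower without *hlk* replicate 1, 5 with the replicate block and 2 with equal housekeeping genes. The kinesin *kif1b* was the larger rise, from 4.94, 4.81 and 4.71 in *hlk* to 8.14 to 8.7 (median 8.62) in *hMYC-2*, and *mapre1a*, which binds microtubule ends, followed at 1.5. The kinesin light chain *klc1b* was lower at −0.79. Lysosome and autophagy genes had 15 of 64 higher and 8 lower (9 and 3 with the block, 15 and 2 with equal housekeeping genes), among them the membrane protein *lamp1b* at 1.32. *laptm4b* was called lower but lay within background in both groups. *ipo4*, an importin that carries histones and ribosomal proteins into the nucleus, read 10.72, 9.7 and 8.76 in *hlk* and 7.21 to 7.71 (median 7.46) in *hMYC-2* (−2.27, adjusted p = 0.000135).

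Transcription factor families of the embryo lay mostly within background. Of 189 homeodomain, forkhead and SOX genes, 163 lay within background in both groups. In this list 19 were lower (10.1%) and 9 higher (4.76%), shares under those of all named genes. The count of falls was 6 with the replicate block, 5 with equal housekeeping genes and 11 without *hlk* replicate 1. *irx7*, an Iroquois gene, read 5.76, 7.62 and 6.45 in *hlk* and 3.38 to 3.79 (median 3.53) in *hMYC-2* (lower by at least 0.93), and *foxp1a*, a forkhead gene that B cell development requires in mammals, rose by 1.63 (adjusted p = 1.03e-05). Of 152 zinc finger, KLF and ZBTB genes 36 were lower and 22 higher, or 13 and 22 with equal housekeeping genes. *zeb1b*, a repressor of lymphoid and epithelial genes, was lower at −1.17, and *znf143b*, a factor of promoters and chromatin loops, at −1.16 (adjusted p = 0.000131). The largest rise in that list was not of a DNA-binding protein: *zdhhc2*, a palmitoyl transferase with a zinc finger domain, went from 3.45, 3.23 and 3.4 in *hlk* to 7.75 to 8.78 (median 8.66) in *hMYC-2* (at least 2.85).

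The largest falls of all were spread over genes of many roles. *arpp21*, which is expressed in immature thymocytes of mammals, read 10.48, 10.64 and 10.45 in *hlk* and 4.51 to 5.22 (median 5.0) in *hMYC-2*, so it was lower by at least 4.84 (adjusted p = 1.03e-05). *ved*, a homeobox repressor of the embryo, was lower by at least 4.37, *nckap5l* by at least 4.01, *palm1b*, a paralemmin, by at least 3.39 and *cyld2*, a relative of the deubiquitinase CYLD, by at least 3.14. In each of these 5 genes every *hMYC-2* array lay within background and every *hlk* array read above 8.

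Among falls with at least 1 array of each group above background, *znrf1*, a ubiquitin ligase, read 10.44, 10.0 and 10.37 in *hlk* and 4.33 to 5.74 (median 5.46) in *hMYC-2* (−5.09, adjusted p = 0.000391), where 1 array of 6 was above background. *ponzr1*, a gene of the zebrafish kidney, read 11.48, 10.96 and 11.88 in *hlk* and 5.57 to 8.14 (median 6.24) in *hMYC-2* (−4.78). Next in size were *nfil3-6*, a relative of the leukocyte factor NFIL3 (−4.29), *desi2*, a protease of the SUMO pathway (−3.9, adjusted p = 1.52e-06), *sb:cb81* (−3.88), *nck1b*, an adaptor of receptor kinases (−3.59), *midn* (−3.54) and *tpst1l* (−3.47). The *hMYC-2* arrays of *ponzr1* spread most among these genes, and those of *desi2* least.

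The largest rises outside the B lineage list were also of several kinds. *hopx*, a homeodomain protein that does not bind DNA, was within background in *hlk* and read 8.99 to 10.88 (median 10.61) in *hMYC-2* (at least 4.69, adjusted p = 6.87e-07), and *si:ch211-137a8.4* rose by at least 3.73. *smox*, spermine oxidase, read 8.05, 4.01 and 3.8 in *hlk* and 9.65 to 11.35 (median 11.04) in *hMYC-2* (5.57, adjusted p = 0.000239), with a second probe set that did not pass. *ppdpfb*, *snx7*, *them6*, *serinc5* and *prnprs3*, a prion protein related gene, were higher at 4.17, 3.96, 3.28, 3.27 and 3.25. In *smox*, *snx7*, *tagln2* and *them6* replicate 1 was the highest *hlk* array, yet below every *hMYC-2* array.

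In most lists of markers of cells that a body sort could carry along, most genes lay within background. In the pancreas and intestine list only 13 of 26 measured genes lay within background in both groups. Of the erythroid list 14 of 17 measured genes, of the muscle list 25 of 32, of the hepatocyte list 26 of 32, of the skin list 22 of 28 and of the fibroblast and endothelial list 24 of 25 lay within background in both groups. The lists moved with the groups in small steps: 6 of 28 skin, 5 of 26 pancreas and intestine and 5 of 16 kidney tubule markers were lower in *hMYC-2*, with median differences of −0.26, −0.30 and −0.16. These counts were 2, 1 and 3 without *hlk* replicate 1, 1, 2 and 2 with the replicate block and 2, 1 and 2 with equal housekeeping genes. The mean log2 value over the skin markers ran from 4.1 to 4.64 over the *hlk* arrays and from 3.89 to 4.06 over the *hMYC-2* arrays, and that over the pancreas and intestine markers from 4.35 to 5.01 and from 4.1 to 4.31. Among the called markers, *gata3*, which is also a T cell gene, stands in the kidney list. The part of such cells in the differences was not tested. Of the 4 NK and cytotoxic markers 2 were higher, *nccrp1*, a receptor of fish cytotoxic cells, with 5.89, 6.07 and 6.12 in *hlk* and 8.39 to 8.75 (median 8.5) in *hMYC-2* (2.51, adjusted p = 9.48e-09), and *ncalda* (1.13).

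For some genes given above with an exact difference, the mean of the dimmer group was under background although not all of its arrays were. In *hMYC-2* 1 of 6 arrays was above background for *znrf1*, *nfil3-6*, *nsg2*, *jag1a*, *myclb*, *cdc45* and *chek1*, 2 for *rag1*, 3 for *dpysl5b* and 4 for *sb:cb81*. In *hlk* 1 of 3 arrays was above it for *tmsb1*, *smox*, *nrros*, *snx7*, *cyba*, *them6*, *prnprs3*, *dusp5*, *eif4ebp3l*, *mdh1ab* and *smad5*, and 2 of 3 for *ddit4*, *serinc5*, *mak16* and *vdac3*. The sizes given for these genes rest in part on values that the arrays measure poorly.

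Set against the same *hlk* arrays, *hMYC-1* ALL differed at 2909 probe sets, and *hMYC-2* and *hMYC-1* differed from each other at 83. Since both comparisons use the same 3 *hlk* arrays, their values are given side by side with no test of likeness. In *hMYC-1* 52 genes of ribosome biogenesis were higher and 4 lower, 37 chromatin regulators lower and 10 higher, 18 proteasome genes lower and 0 higher, and 27 splicing genes lower and 7 higher. The B lineage list had 14 higher and 3 lower, and the T cell list 5 lower and 2 higher. The immediate early list had 4 higher and 10 lower. For *runx3* the difference in *hMYC-1* was −2.5, for *myca* −5.57, for *mych* 0.92 and for *psmb9a* −2.31. All 4 *hMYC-1* arrays lay within background for *gata3*, and 1 of 4 was above it for *trac*, *myca*, *fosl2* and *dusp5*.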

How the data were processed

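RNA of sorted GFP+ cells (100 ng, 3′ IVT Express kit) was hybridized by the authors to Affymetrix Zebrafish Genome Arrays, and the deposited log2 values, made by the authors with justRMA, were used as given. Groups came from the sample labels. The 115 control probe sets were left out. Of the other probe sets 10795 were named by 1 symbol in the platform annotation, 135 by several and 4572 by none, and a gene was counted by its brightest probe set. Further probe sets of a named gene that lay within background and did not pass are not all mentioned.

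A mean per group was fitted to all 13 arrays with limma 3.58.1 (R 4.3.3), and p-values were adjusted by Benjamini-Hochberg over 15502 probe sets. In simulated data 32% of differences of 0.5, 82% of 1 and 94% of 2 were recovered. That simulation changed a far smaller share of probe sets than was called here and gave all groups the same spread. Its rates may therefore not hold for this comparison. Lists of 66 kinds were described by counts and medians with no set test. Named genes were the largest differences and up to 6 members of a list in each direction whose arrays did not overlap. Others outside that rule were named after their values were seen. Among them are *rag1*, *rag2*, *id3*, *chek1*, *xrcc1*, *mhc1ufa*, *b2m* and the genes given as not passing. Further called members of the lists were picked in the same way, such as *ezh2*, *arid2*, *chd4a*, *fbl*, *sdad1*, *npm1a* and *paics*. So were *hspa5*, *hsp90b1*, *jun*, *spi1b*, *ube2v1*, *slc43a2a* and *ppm1da*. The members and lists were chosen with earlier results of these data known.

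Replicate numbers 1, 2 and 3 are shared by both groups, and neither the labels nor the methods say what a number shares. Deviations of arrays of the same number correlated at 0.323, 0.230 and 0.242 for the pairs 1, 2 and 3, so the blocked values are given. The methods give 10 *hMYC* and 3 *hlk* fish for these arrays. Limma's p-values rest on a spread between fish that is pooled over all groups and taken as equal in them. The *hlk* arrays correlated less with each other than the *hMYC-2* arrays did. The p-values may therefore be too small for genes that vary within *hlk*, and with array weights 2885 probe sets were called. The number of arrays limits the precision. The authors' own test was a shrinkage t with a local false discovery rate. A version of it coded anew here, not the authors' software, was tried as an alternative, and its counts may differ from theirs. Other alternatives were other priors, array weights, normalizations, filters, scalings and left-out arrays. Promoter and protein sequences were not used here.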

Additional observations from a re-analysis of the deposited data

Results flagged for a closer look

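Among 6 arrays of a group, the gap of the outermost array to its neighbor was wide for the group's range in 16 of 222 genes named above that had an *hMYC-2* array above background (7.21%), near the 1 in 20 that chance gives. In *hMYC-2* the outermost array was high for *trac* (6.39 in replicate 5), *mef2ca* (6.68 in replicate 3), *socs1a* (8.12 in replicate 6), *socs3b* (8.07 in replicate 1), *tmsb1* (11.57 in replicate 1) and *zeb1b* (7.78 in replicate 2). It was low for *sptbn1* (10.41 in replicate 1), *hopx* (8.99 in replicate 1), *ppat* (9.56 in replicate 3), *zdhhc2* (7.75 in replicate 3), *flna* (9.44 in replicate 4), *slc43a2a* (7.27 in replicate 4), *smox* (9.65 in replicate 4), *gata2a* (6.56 in replicate 6), *pfkpa* (7.05 in replicate 6) and *b2m* (11.04 in replicate 6). The *trac* array was the 1 *hMYC-2* array above background for this T cell receptor gene.

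The difference from *hlk* was itself different in *hMYC-2* and *hMYC-1* for 9 named genes by limma's direct contrast, in groups that the study had made by clustering these arrays. *hMYC-2* minus *hMYC-1* was 4.59 for *fosl2*, 3.35 for *jun*, 3.25 for *dusp5*, 3.24 for *sgk1* and 2.08 for *chac1*, genes of early response and stress. It was 1.83 for *myca*, 1.13 for *ldha*, −0.45 for the splicing factor *srsf6b* and −1.02 for *sox19a*.

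The array's control probe set for EGFP was not used in any comparison. Whether it reads the *lck:eGFP* reporter of the sort gate was not tested. Its mean was 6.61 in *hMYC-2*, 6.58 in *hlk* and 6.6 in *hMYC-1*, beside a background of 5.68. Its range was 6.43 to 6.88 in *hMYC-2* and 6.46 to 6.68 in *hlk*. These values were not read as an amount of reporter RNA.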

How the results depend on the processing

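The count of 3822 changed probe sets stayed within 1.5 times under a trended prior, array weights, the 9 arrays alone, a further quantile normalization, a filter on low values (2788 of 6949 tested), equal housekeeping genes (2688) and the latter without *hlk* replicate 1 (2848, chosen after seeing the data). It was 2395 with the replicate block, 1343 with a 2-fold minimum and 961 with the shrinkage t. Higher probe sets numbered 793 with the 2-fold minimum and 554 with the shrinkage t. Lower ones numbered 1226 with the replicate block, 1366 with the filter, 909 with equal housekeeping genes, 550 with the 2-fold minimum and 407 with the shrinkage t. The share of higher ones went from 44.6% to 51.0% with the filter, 57.6% with the shrinkage t, 59.0% with the 2-fold minimum and 66.2% with equal housekeeping genes. With equal housekeeping genes and without *hlk* replicate 1 the share was 47.6%, near that of the main fit. The filter and the minimum test or keep fewer dim and small differences by construction. For the shrinkage t the cause was not tested. Leaving out 1 array in turn gave 3320 to 3846 changed, 1478 to 1751 higher, 1807 to 2095 lower and shares of 41.8% to 46.3%. Of 237 named genes that passed, 173 passed under every alternative, and none of them turned direction. The shrinkage t, the kind of test the authors used, lost 63 of the calls, those of *aldocb*, *asns*, *axin1*, *bcl2l1*, *btg2*, *ccng1*, *cd68*, *cdc45*, *chek1*, *coro1a*, *cox5aa*, *cth*, *derl2*, *eif6*, *etv6*, *faub*, *gbp1*, *hdac9b*, *hells*, *hmgb1a*, *hmgb1b*, *hmgb3b*, *hsp90b1*, *hspa5*, *hspd1*, *hspe1*, *id2a*, *id3*, *idh2*, *irf7*, *jak1*, *klc1b*, *klf2a*, *lamp1b*, *mapre1a*, *mdh1ab*, *mdh2*, *med20*, *med8*, *mef2ca*, *mthfd1b*, *mthfd2*, *mxd4*, *ncalda*, *ncf4*, *nme3*, *paics*, *pdia3*, *pfkpa*, *pgd*, *pkma*, *ppm1da*, *rag1*, *rplp2*, *rps26l*, *setd7*, *slc43a2a*, *smad5*, *socs3b*, *ube2v1*, *vdac3*, *xrcc1* and *xrcc6*. *mhc1ufa*, which did not pass, had a difference of 2.2 that ranged from −0.83 without *hlk* replicate 1 to 3.74 without replicate 3 when 1 array was left out, and was −0.85 with equal housekeeping genes and without *hlk* replicate 1. The level of replicate 1 was at background. The median of 42 of the 66 lists moved by more than the spread of the *hlk* arrays with equal housekeeping genes, against 7 with the replicate block. With equal housekeeping genes and without *hlk* replicate 1 it was 10 lists, and without that array alone 11. With the shrinkage t the list counts were far smaller. Of all 8793 named genes 363 were higher and 248 lower there. Ribosome biogenesis had 12 higher and 2 lower, chromatin regulators 3 and 13, splicing factors 1 and 9, the proteasome 0 and 7, and ubiquitin genes 1 and 3. Motifs in promoters, planned, were not run. Probe sets within background have differences that arrays of this kind measure poorly.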
